A study of Solanum lycopersicum with 24 samples.

Results

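The curated non-coding RNAs of tomato leaf were the rows of the deposited TPM table whose RefSeq identifier starts with NR_ and which were above 0 in at least 2 of 24 libraries. There were 96 such members out of 121 NR_ rows and 45845 transcripts in all. Of the other NR_ rows, 16 were listed at 0 in every library and 9 were above 0 in a single library. TPM is a read count divided by transcript length and scaled to the same sum in each library.

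The leaves came from plants of the tomato selection line YaLF, 28 days old and grown at 25 °C under a 16-h photoperiod. Hardening plants were kept for 5 days at 6 °C by the sample labels (the methods text names another temperature), Stress plants were cooled at 0 °C for 2 h, Combo plants were hardened and then cooled, and Control plants had no cold treatment (the study's text gives a Control temperature other than that of growth). Each condition has 2 libraries of polysomal RNA (mRNA carrying several ribosomes), 2 of monosomal RNA (a single ribosome) and 2 of total RNA, all poly(A)-selected. The study's methods call the 2 libraries technical repeats and the table's headings call them biological replicates, so the p-values below measure only the spread between these libraries. Stress and Combo leaves were collected later in the day than the others, and time of day cannot be told apart from cooling.

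MicroRNA genes are transcribed into capped and polyadenylated primary transcripts, which Dicer-like enzymes cut through a hairpin precursor into a mature microRNA that guides an Argonaute protein to complementary mRNA. In tomato the miR482 family, with miR6024 and miR5300, targets mRNA of NBS-LRR disease resistance proteins, and miR168 targets that of Argonaute 1. Long non-coding RNAs are polyadenylated as mRNA is. The small structural RNAs, such as 7SL RNA of the signal recognition particle (SRP, which brings secretory proteins to the endoplasmic reticulum), the spliceosomal U RNAs and the nucleolar U3, do not normally carry a poly(A) tail. The rows measured here are the curated precursors or transcripts, and mature microRNAs were not measured.

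By the names in the RefSeq gene table, 90 of 96 members could be matched to a symbol. They were 44 microRNA precursors (of 68 such rows), 25 long non-coding RNAs, 10 spliceosomal or nucleolar RNAs, 3 SRP RNAs, 4 pseudogene transcripts and 4 non-coding transcripts of coding genes, and 6 stayed without a name. The precursors are short, with a median gene length of 165.5 bases and 30 of 44 under 200 bases. TPM of such short rows are unsure, because the length correction is large and few reads can give a high value, and the number of reads behind a value is unknown in this table. In addition, 24 of the 44 precursors share their span with another gene in the RefSeq table, 8 of them with a protein-coding gene. None of these neighbours was matched to a row by its exact RefSeq identifier, but the gene names come from another assembly. A neighbour may be present under another identifier or version. Where it has no row, its reads cannot be told apart from reads of the precursor. LOC108663988 (an SRP RNA) and NR_138593.1 had identical values in all 24 libraries and are counted as 2 rows of what may be 1 sequence.

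Most of the long non-coding RNAs were found in every library, while most precursors were found in some. Of all members, 31 were above 0 in all 24 libraries and 9 in exactly 2. Among the precursors, 5 of 44 were above 0 in all 24 libraries, against 16 of 25 long non-coding RNAs. Members above 0 numbered 42 to 71 in a polysome library, 40 to 65 in a monosome library and 68 to 81 in a total RNA library. For the precursors these ranges were 7 to 26, 8 to 20 and 21 to 33.

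The libraries differed in composition, and the labels of 2 conditions did not match between fractions. In the polysome libraries the 10 most abundant transcripts held 39.4 to 47.3% of all TPM for the label Stress, 11.0 to 18.4% for Hardening and Combo and 55.7 to 60.0% for Control. In the monosome libraries they held 10.3 to 38.2% for the other labels and 64.4 to 68.9% for Control, and in total RNA 6.67 to 15.9%. Over 19291 transcripts, the deviation of polysomes labelled Hardening from the mean over conditions correlated with that of total RNA at r = -0.71 for Hardening and 0.77 for Stress, and the label Stress at -0.66 for Stress and 0.62 for Hardening. Monosomes gave the same signs. These libraries are therefore called by their label only. The summed leaf markers (7 genes of photosynthesis) were at 12800 to 75260 TPM in total RNA, and the 2 pollen markers at 0.0284 to 0.843 TPM. The summed markers of ripe fruit (6 genes) were at 64.5 to 669.7 TPM and those of root (2 genes) at 4.23 to 24.7 TPM.

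**Figure D1:**
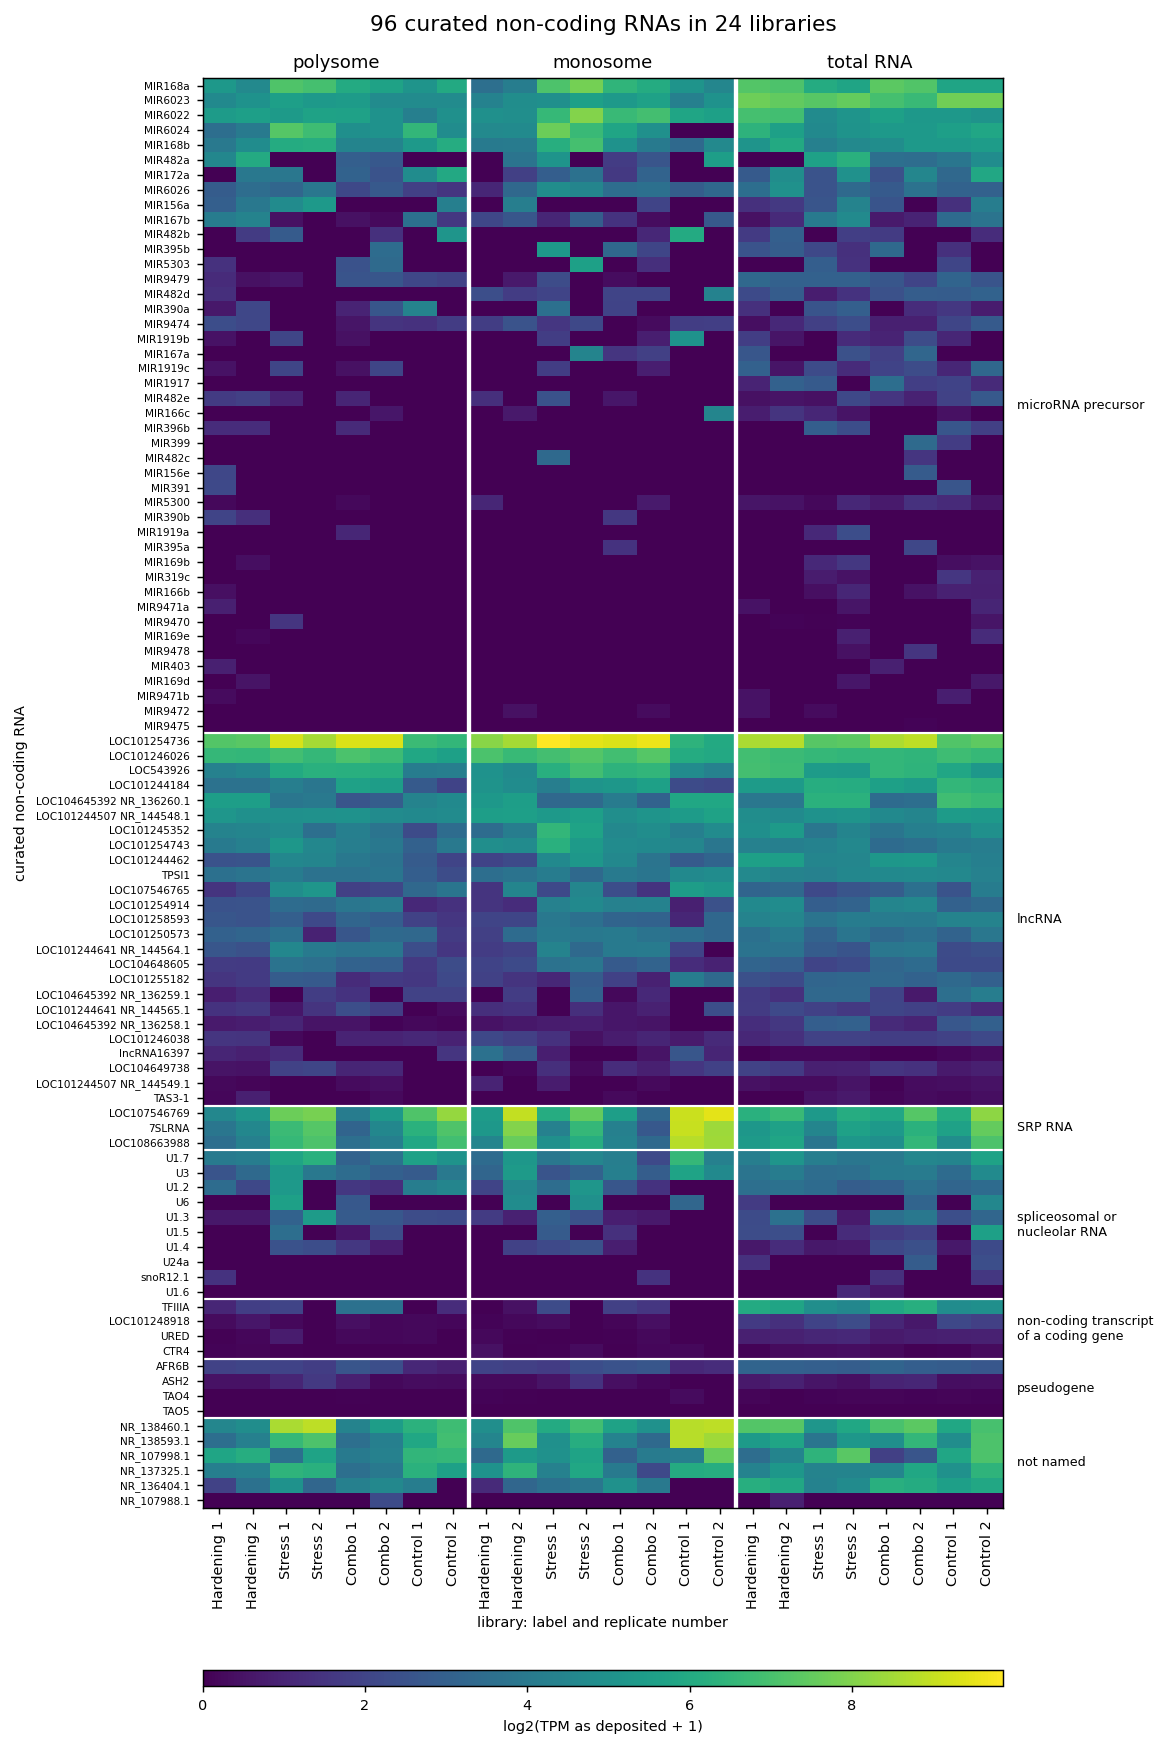
Heat map of log2(TPM as deposited + 1) for the 96 curated non-coding RNAs (rows, grouped by class and sorted by mean) in 24 libraries (columns: polysome, monosome and total RNA, each with 2 replicates of 4 conditions). The lower part of the precursor block is mostly at 0, LOC101254736 is bright in every library, and the SRP RNAs are brightest in the Control monosome libraries.

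The level of the members spanned several orders of magnitude. The highest by mean TPM over 24 libraries was LOC101254736 at 371, a long non-coding RNA with 144 to 470 TPM in total RNA. LOC107546769 (an SRP RNA) followed at 164, NR_138460.1 (no name) at 141, LOC101246026 (a long non-coding RNA) at 101 and 7SLRNA at 97.7. The lowest were TAO5 and TAO4 (pseudogene transcripts of the aldehyde oxidase family) at 0.00168 and 0.0448 and the precursors MIR9475, MIR9472 and MIR9471b at 0.00521, 0.0501 and 0.0567. The most abundant precursors were MIR168a at 81.4, MIR6023 at 78.8 and MIR6022 at 62.5. TPM is a level per length, but for these short rows the order is a description only.

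In total RNA, Hardening_vs_Control asks how 5 days of cold changed the members. Values were scaled between libraries and tested as log2(scaled TPM + 1) with limma over 22013 transcripts, and a member was called at a log2 change over 1 in size and an adjusted p under 0.05. Of 65 members that passed the filter of a mean of 1 scaled TPM, 4 rose and 12 fell. Of all transcripts, 13.3% rose and 17.3% fell. The members' median log2 change was -0.51 and that of all transcripts was -0.00060. By class, 2 precursors rose and 5 fell of 24 tested, 2 long non-coding RNAs rose and 6 fell of 22, and 1 of 5 unnamed members fell. No SRP, spliceosomal or nucleolar RNA was called. Of these 16 calls, 12 held when each of the 8 libraries was left out in turn.

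MIR482a (NR_108009.1) is the precursor of a regulator of NBS-LRR resistance genes. It was listed at 0 in both Hardening libraries. It had 49.2 and 76.6 TPM in Stress, 11.3 and 10.4 TPM in Combo, and 13.7 and 26.7 TPM in Control. The 4 conditions did not overlap. In Hardening_vs_Control MIR482a fell (limma adjusted p = 5.94e-05), with no fold given because Hardening was at 0. In Combo_vs_Hardening it was higher in Combo (limma adjusted p = 0.00156), again with no fold. Both calls held without any 1 library, but with Hardening at 0 MIR482a could only come out as lower there. In Stress_vs_Control it rose by 1.54 on the log2 scale (SE 0.33, limma adjusted p = 0.0294), and in Combo_vs_Control it fell by 1.11 (SE 0.33, limma adjusted p = 0.0250).

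The last 2 calls of MIR482a were fragile. That of Stress_vs_Control was lost in 7 of 8 fits that left out a library. Without Control replicate 1 the change was 1.06, without Stress replicate 1 it was 1.86, without Stress replicate 2 it was 1.23, and without either Hardening or either Combo library it stayed at 1.54 while the adjusted p passed the threshold. That of Combo_vs_Control was lost without Control replicate 2, at -0.65, and without Combo replicate 1 or 2, at -1.12 and -1.08, and on TPM as deposited, at -0.76.

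MIR482d (NR_130092.1) had 3.60 and 6.29 TPM in Hardening, 0.726 and 1.73 TPM in Stress, 4.45 and 6.55 TPM in Combo, and 6.37 and 7.55 TPM in Control. Its Stress libraries were the lowest of the 8, and Stress_vs_Control gave a log2 change of -2.001 (SE 0.32, limma adjusted p = 0.0118), lost without Stress replicate 1 (-1.66), Control replicate 1 (-2.14) or Control replicate 2 (-1.89). MIR482e had 0.355 and 0.441 TPM in Hardening, 0.369 and 3.44 TPM in Stress, 1.83 and 0.937 TPM in Combo, and 2.81 and 5.70 TPM in Control. It fell in Hardening_vs_Control by 2.08 on the log2 scale (SE 0.59, limma adjusted p = 0.0214), a call lost without either Hardening replicate (-2.03 and -2.09) or without Control replicate 2 (-1.67). MIR482b and MIR482c were not called in any comparison, and MIR482c was above 0 in 1 of 8 total RNA libraries.

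MIR6022 and MIR6023, whose microRNAs are predicted to target receptor-like resistance proteins, were at high levels and moved differently. MIR6022 (NR_108011.1) had 124 and 117 TPM in Hardening, 25.7 and 33.0 TPM in Stress, 47.9 and 37.6 TPM in Combo, and 37.6 and 32.7 TPM in Control. Both Hardening libraries stood above the other 6. It rose in Hardening_vs_Control by 1.36 on the log2 scale (SE 0.15, limma adjusted p = 0.000365), and in Combo_vs_Hardening it fell by 1.45 (SE 0.15, limma adjusted p = 0.00198), and both calls held without any 1 library. In Combo_vs_Control its log2 change was -0.09. MIR6023 (NR_108012.1) had 206 and 178 TPM in Hardening, 155 and 183 TPM in Stress, 123 and 103 TPM in Combo, and 209 and 212 TPM in Control. Its Combo libraries were the lowest of the 8 and its Control libraries the highest, and it fell in Combo_vs_Control by 1.26 (SE 0.12, limma adjusted p = 0.000171), although on TPM as deposited that change did not pass the cutoff of 1. MIR6024, whose microRNA targets NBS-LRR mRNA, was not called in total RNA.

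MIR168a (NR_108018.1), precursor of the microRNA that targets Argonaute 1, was at a high level in both hardened groups. It had 147 and 138 TPM in Hardening, 66.2 and 53.5 TPM in Stress, 166 and 144 TPM in Combo, and 53.6 and 53.0 TPM in Control. The hardened and unhardened libraries did not overlap. It rose in Combo_vs_Control by 1.16 on the log2 scale (SE 0.11, limma adjusted p = 0.000174), which held without any 1 library. In Hardening_vs_Control its change of 1.00 (SE 0.11, limma adjusted p = 0.000388) lay on the cutoff and was under it without Hardening replicate 1 (0.96), Stress replicate 1 or 2 (both 0.99), or Control replicate 1 (0.99) or 2 (0.999). Its paralog MIR168b had 33.6 and 62.4 TPM in Hardening, 18.9 and 23.8 TPM in Stress, 27.5 and 39.7 TPM in Combo, and 38.5 and 42.9 TPM in Control. It was not called in these comparisons, although the fit with the replicate number as a block called it in Stress_vs_Control (log2 change -1.01, limma adjusted p = 0.00992 with the block and 0.0826 without).

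MIR167b, MIR396b and MIR9474 were low in both hardened groups. MIR167b, of the family that targets the auxin response factors ARF6 and ARF8, had 0.360 and 1.23 TPM in Hardening, 15.8 and 25.5 TPM in Stress, 0.632 and 0.982 TPM in Combo, and 9.82 and 13.0 TPM in Control. Hardened and unhardened libraries did not overlap, and it fell by 3.096 in Hardening_vs_Control (SE 0.31, limma adjusted p = 0.000248) and by 3.04 in Combo_vs_Control (SE 0.31, limma adjusted p = 0.000229). MIR396b, of the family that targets growth-regulating factors, was listed at 0 in all 4 Hardening and Combo libraries, and had 6.74 and 3.99 TPM in Stress and 5.25 and 2.60 TPM in Control. It was called lower in both comparisons (limma adjusted p = 0.000792 in Hardening_vs_Control and 0.000704 in Combo_vs_Control), with no fold given. MIR396b passed the filter on low values only through Stress and Control, so it could only come out as lower in the hardened groups. Its adjusted p is therefore no support for a fall. MIR9474 had 0.303 and 1.17 TPM in Hardening, 2.66 and 3.99 TPM in Stress, 0.802 and 0.833 TPM in Combo, and 3.14 and 5.94 TPM in Control. It fell by 1.92 and 1.80 in Hardening_vs_Control and Combo_vs_Control (SE 0.34 each, limma adjusted p = 0.00322 and 0.00387). All 6 of these calls held without any 1 library, which for MIR396b is no support either.

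**Figure D2:**
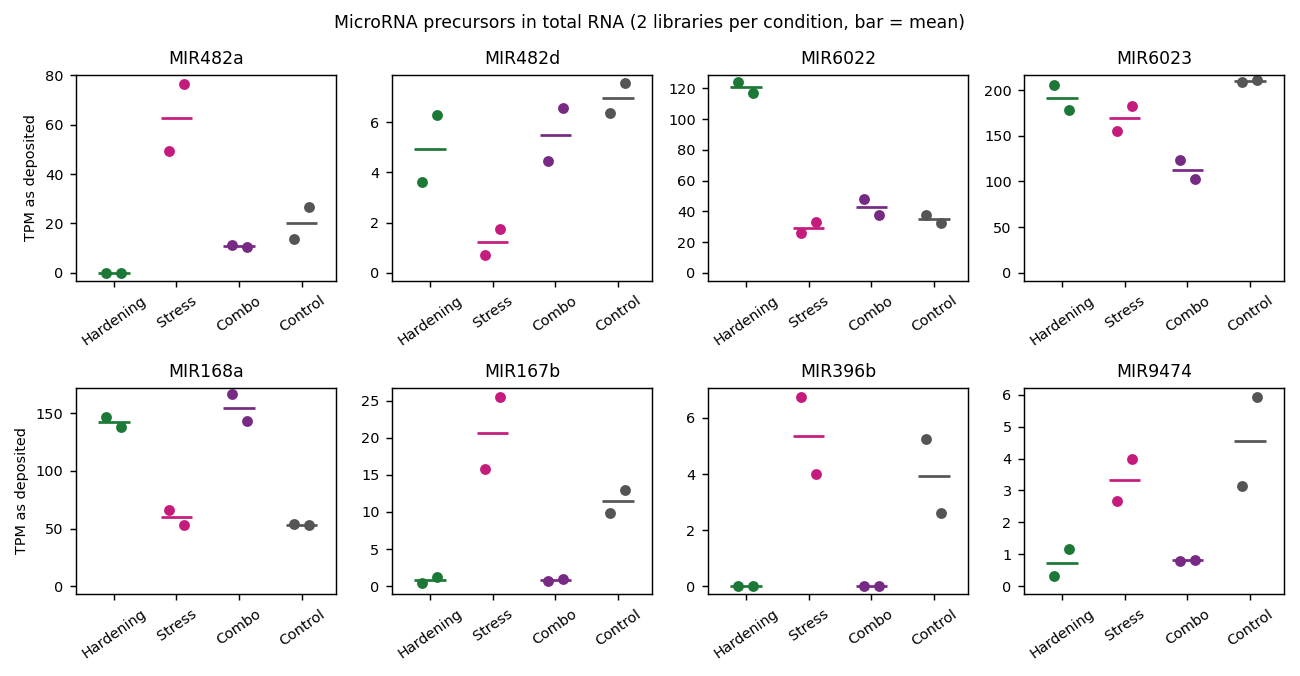
TPM as deposited (y axis, a scale of its own in each panel) of 8 microRNA precursors in total RNA for Hardening, Stress, Combo and Control, with 2 points per condition and a bar at their mean. MIR482a is at 0 in Hardening and at 49.2 and 76.6 TPM in Stress, MIR168a is high and MIR167b low in Hardening and Combo, and MIR6022 is high in Hardening.

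Among the long non-coding RNAs, the 3 transcripts of LOC104645392 fell together and its main transcript had the smallest adjusted p of the members in both comparisons. NR_136260.1 had 14.0 and 14.2 TPM in Hardening, 78.3 and 76.9 TPM in Stress, 9.99 and 11.0 TPM in Combo, and 112 and 100.1 TPM in Control. The 4 conditions did not overlap. It fell by 3.21 in Hardening_vs_Control (SE 0.09, limma adjusted p = 1.54e-06) and by 3.57 in Combo_vs_Control (SE 0.09, limma adjusted p = 7.34e-07). NR_136258.1 and NR_136259.1, at 0.580 to 17.0 TPM in total RNA, fell by 1.703 and 2.68 in Hardening_vs_Control and by 2.03 and 2.84 in Combo_vs_Control. Because the 3 transcripts share sequence, the split between them depends on how reads were assigned.

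LOC101244184 fell and LOC101254914 rose, both at moderate levels. LOC101244184 had 41.8 and 40.6 TPM in Hardening, 69.2 and 68.7 TPM in Stress, 47.4 and 41.4 TPM in Combo, and 90.5 and 82.1 TPM in Control, and fell by 1.44 in Hardening_vs_Control (SE 0.07, limma adjusted p = 1.41e-05) and by 1.31 in Combo_vs_Control (SE 0.07, limma adjusted p = 1.63e-05), with the Combo_vs_Control change at -0.94 and under the cutoff on TPM as deposited. LOC101254914 had 24.9 and 27.1 TPM in Hardening, 6.65 and 7.90 TPM in Stress, 21.4 and 23.4 TPM in Combo, and 7.29 and 9.21 TPM in Control. Hardened and unhardened libraries did not overlap for either gene. LOC101254914 rose by 1.18 in Hardening_vs_Control (SE 0.14, limma adjusted p = 0.000588). Its change of 1.00 in Combo_vs_Control (SE 0.14, limma adjusted p = 0.00110) lay on the cutoff and was under it without Stress replicate 1 or 2 (both 0.99), Combo replicate 2 (0.92) or Control replicate 1 (0.83).

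The transcript NR_144564.1 of LOC101244641 had 12.4 and 12.7 TPM in Hardening, 6.25 and 4.93 TPM in Stress, 14.0 and 15.1 TPM in Combo, and 3.82 and 4.31 TPM in Control. It rose by 1.07 in Hardening_vs_Control (SE 0.13, limma adjusted p = 0.000585), a change of 0.98 without Control replicate 1, and by 1.30 in Combo_vs_Control (SE 0.13, limma adjusted p = 0.000208). LOC101255182 and LOC101246038 fell in Hardening_vs_Control by 1.23 and 1.12 (SE 0.15 each, limma adjusted p = 0.000580 and 0.000917), and that of LOC101246038 was at -0.99 without Hardening replicate 1. On TPM as deposited both were under the cutoff, at -0.89 and -0.85. The unnamed NR_107998.1 had 10.5 and 20.9 TPM in Hardening, 84.6 and 163 TPM in Stress, 2.61 and 5.11 TPM in Combo, and 56.8 and 138 TPM in Control. Its hardened libraries lay below all others, and it fell by 2.89 in Hardening_vs_Control (SE 0.57, limma adjusted p = 0.00494).

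Combo_vs_Control asks what hardening followed by 0 °C left changed. Of 65 members, 4 rose and 12 fell, against 15.6% and 19.9% of all transcripts (35.5% in all), and the median log2 change of the members was -0.60 against 0.01 for all. Because Hardening_vs_Control and Combo_vs_Control share the Control libraries, their lists are not independent. LOC101254736, the most abundant member, had 387 and 434 TPM in Hardening, 156 and 166 TPM in Stress, 396 and 470 TPM in Combo, and 144 and 170 TPM in Control. It rose by 1.09 in Combo_vs_Control (SE 0.13, limma adjusted p = 0.000513), and by 0.94 without Combo replicate 2 or Control replicate 1. NR_107998.1 fell by 4.59 (SE 0.57, limma adjusted p = 0.000541). NR_144548.1 of LOC101244507 fell by 1.11 (SE 0.09, limma adjusted p = 7.95e-05), a call lost on TPM as deposited, and the non-coding transcript of LOC101248918 fell by 1.38 (SE 0.22, limma adjusted p = 0.00161).

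**Figure D3:**
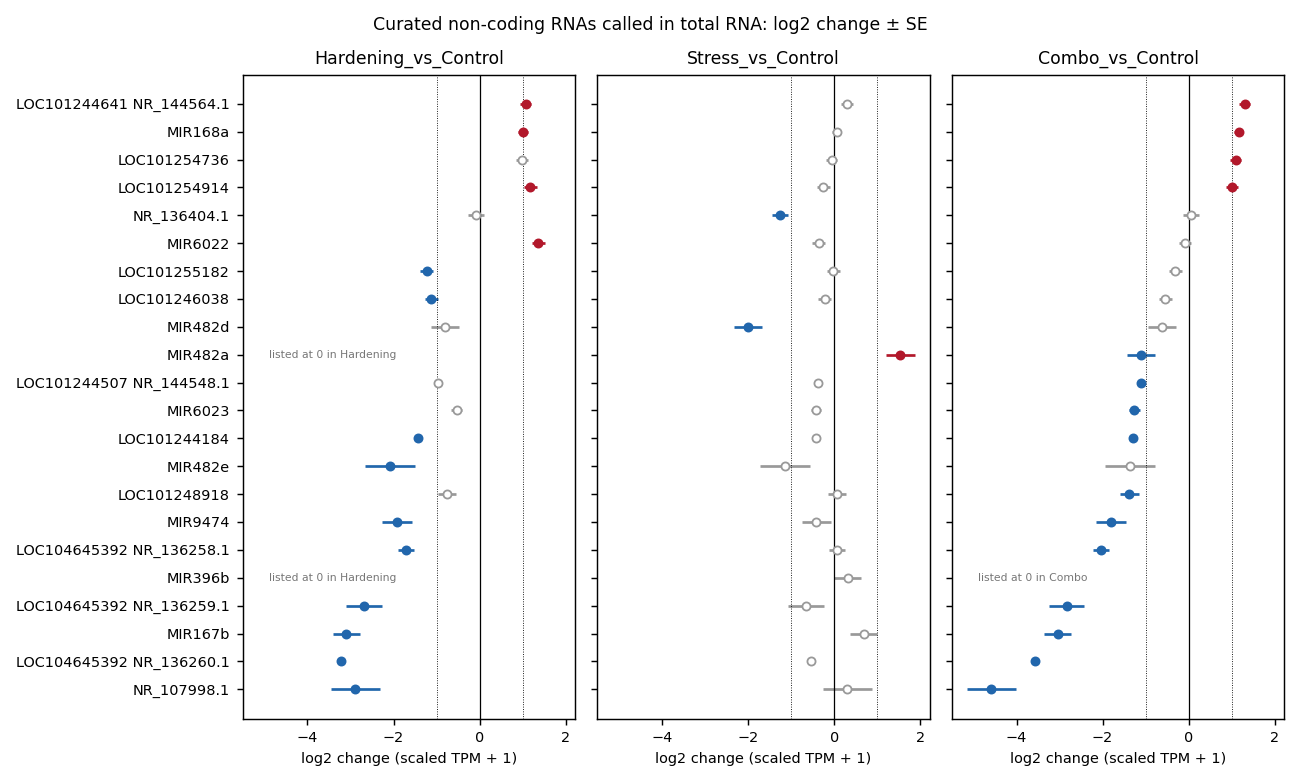
Log2 change on the scale of scaled TPM + 1 (x axis, point ± SE) of the 22 members called in at least 1 of 3 comparisons with Control in total RNA, with dotted lines at the cutoffs of -1 and 1. Filled points were called (red higher, blue lower) and open points were not, and members listed at 0 in 1 group have no point. Most filled points are in Hardening_vs_Control and Combo_vs_Control, and 3 are in Stress_vs_Control.

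Stress_vs_Control asks what 2 h at 0 °C changed in unhardened leaves. Of 65 members 1 rose and 2 fell, against 2.37% and 1.94% of all transcripts. MIR482a was the member that rose and MIR482d fell. So did the unnamed NR_136404.1, with 70.8 and 59.3 TPM in Hardening, 19.6 and 26.1 TPM in Stress, 73.0 and 66.3 TPM in Combo, and 46.1 and 58.6 TPM in Control. Its Stress libraries lay below all others, and it fell by 1.27 (SE 0.18, limma adjusted p = 0.00839), which held without any 1 library.

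In total RNA the replicate numbers paired the libraries: the deviations of same-numbered libraries from their condition means correlated at 0.22 to 0.28 in all 6 pairs of conditions. Fitted with this block, Stress_vs_Control had 8 calls among the 65 members, 1 up and 7 down, against 5.08% of all transcripts called. The added ones were MIR168b, LOC107546769, 7SLRNA, NR_137325.1 and NR_138460.1, with log2 changes of -1.01 to -1.62. In Hardening_vs_Control the block added MIR172a (-1.18, limma adjusted p = 0.00172 with the block and 0.471 without), 7SLRNA (-1.56) and NR_137325.1 (-1.31), and in Combo_vs_Control MIR172a (-1.48), 7SLRNA (-1.14) and U1.7 (-1.16). In Combo_vs_Stress it added U1.4 (1.41, limma adjusted p = 0.0229 with the block and 0.0545 without).

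Combo_vs_Hardening asks what 0 °C changed in hardened leaves. MIR482a rose and MIR6022 fell, 2 of 65 members, against 1.91% and 2.22% of all transcripts (4.12% in all). With the block 4 were called, against 4.63% of all transcripts. It added NR_107998.1 (-1.70, limma adjusted p = 0.000741) and LOC101245352 (-1.05, limma adjusted p = 0.000487), both lower in Combo. The test of the difference between the change at 0 °C in hardened leaves and that in unhardened leaves called 3 members up and 2 down, against 3.17% and 3.91% of all transcripts (7.08% in all). Those up were MIR482a, MIR482d and NR_136404.1, and those down were MIR6022 and LOC101254743. None of the 5 held in all 8 fits that left out a library. With the block there were 8, against 8.41% of all transcripts, adding NR_107998.1 (lower), 7SLRNA (2.04) and U1.4 (2.10).

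In Combo_vs_Stress, hardened against unhardened leaves at 0 °C, 9 members rose and 12 fell, against 15.4% and 20.3% of all transcripts (35.7% in all). Of these, 12 held without any 1 library, and LOC101254743 was under the cutoff on TPM as deposited, at -0.97. The largest of those changes with no group at 0 were NR_107998.1 at -4.89, MIR167b at -3.73 and NR_136260.1 of LOC104645392 at -3.03. MIR390a, whose microRNA triggers small RNAs from TAS3, had 0 and 1.37 TPM in Combo and 4.84 and 6.96 TPM in Stress and fell by 2.28 (SE 0.58, limma adjusted p = 0.0135), a call lost without Stress replicate 2 (-2.07) or Combo replicate 1 (-1.68). MIR5303 was listed at 0 in both Combo libraries and had 6.71 and 1.63 TPM in Stress. It was called lower (limma adjusted p = 0.0426), a call lost without either Hardening or either Combo library. With Combo at 0, MIR5303 could only come out as lower there, so the call is no support for a fall. U1.3 (2.10), NR_138460.1 (1.40), the non-coding TFIIIA transcript (1.09), NR_136404.1 (1.32) and MIR482d (1.38) were higher in Combo. Of these, NR_136404.1 held without any 1 library. U1.3 was lost without Stress replicate 2 (1.29), Combo replicate 1 (2.29) or Combo replicate 2 (1.92), NR_138460.1 and MIR482d without Stress replicate 1 (1.03 each) or Combo replicate 2 (1.198 and 1.12), and TFIIIA without replicate 2 of Stress or Combo (0.92 each).

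TPSI1, a long non-coding RNA known as induced by phosphate starvation in tomato, was not called in total RNA. It had 24.2 and 20.4 TPM in Hardening, 19.2 and 22.8 TPM in Stress, 24.4 and 25.5 TPM in Combo, and 23.3 and 19.2 TPM in Control. Both Combo libraries lay just above the other 6, which overlapped. Its log2 change was -0.31 in Hardening_vs_Control (SE 0.14) and -0.12 in Combo_vs_Control (SE 0.14). The other phosphate starvation RNAs of the list (IPS1 and AT4) had no row under these symbols.

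The SRP RNAs differed between the replicate numbers. In total RNA, 7SLRNA had 36.0 and 48.9 TPM in Hardening, 21.4 and 49.5 TPM in Stress, 39.2 and 77.9 TPM in Combo, and 49.3 and 185 TPM in Control. Replicate 2 was higher than replicate 1 in all 4 conditions, by 1.36 to 3.75 times, and all 3 SRP RNAs had this order. Over all members with a mean of at least 1 TPM, 20 of 63 had replicate 2 higher in all 4 conditions of total RNA, which is 31.7%, against 16.5% of all transcripts. MIR172a (a precursor of the family that targets AP2-like factors) had 5.98 and 27.6 TPM in Hardening, 4.80 and 31.1 TPM in Stress, 4.45 and 22.0 TPM in Combo, and 9.15 and 59.4 TPM in Control. Replicate 2 was 4.63 to 6.49 times as high in each condition.

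**Figure D4:**
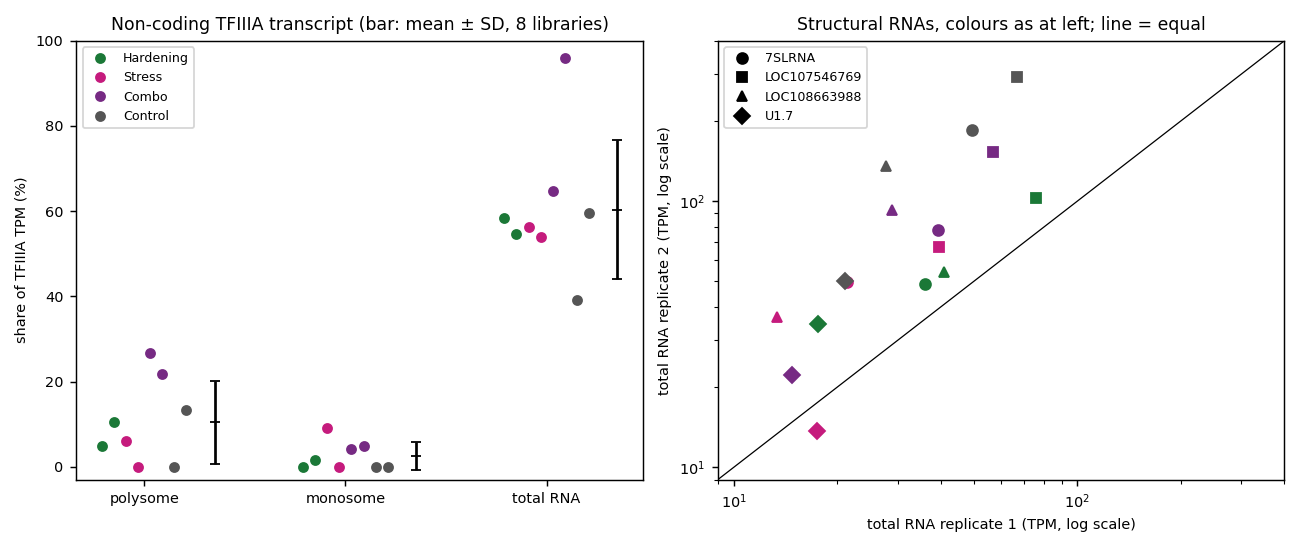
On the left, the non-coding transcript's share of the TPM of TFIIIA (y axis, percent) in the 8 libraries of each fraction, coloured by label, with the mean ± SD as a bar. On the right, total RNA replicate 2 against replicate 1 (TPM, both axes logarithmic) for the 3 SRP RNAs and U1.7, where points above the line are higher in replicate 2. The share lies at 39.2 to 96.1% in total RNA and at 0 to 26.7% in polysomes, and all points but 1 lie above the line.

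Polysome against total RNA asks which members were found with several ribosomes. The mean difference over the 4 conditions does not depend on which label a library of a fraction carries, so it is given first. Of 60 members tested, 4 were higher and 7 lower in polysomes, against 4.25% and 9.44% of all transcripts, and the median of the members was 0.11 against 0.00 for all. Of the 11 calls, 6 held without any 1 library. With all Control libraries left out there were 9 calls, 2 higher and 7 lower. The share of all transcripts called in that fit is not given here, so this count is not read against it. The shift between fractions depends on the scaling: on TPM as deposited the median of all transcripts was -0.76, no member was higher and 19 were lower. There 34.4% of all transcripts were called.

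The clearest differences were of MIR6023 and the non-coding TFIIIA transcript, and MIR482d and MIR1917 were called lower too. MIR6023 had 24.9 to 46.6 TPM in the 8 polysome libraries (median 28.9), 18.6 to 48.9 TPM in the monosome libraries and 103 to 212 TPM in total RNA (median 180). Both ribosome fractions lay below total RNA without overlap. The log2 difference was -1.38 for polysomes minus total RNA (SE 0.10, limma adjusted p = 1.07e-06) and -1.36 for monosomes minus total RNA (SE 0.13). MIR482d was above 0 in 1 of 8 polysome libraries and in all 8 total RNA libraries, at 0.726 to 7.55 TPM, with a difference of -1.77 (SE 0.21, limma adjusted p = 4.17e-05). It passed the filter on low values through total RNA, so it could hardly come out as higher in polysomes. Its value depends on the pseudocount, and its adjusted p is little support for a difference. MIR1917, whose microRNA targets CTR4 (a kinase gene of ethylene signalling) in tomato, was listed at 0 in all 16 ribosome libraries and above 0 in 7 of 8 total RNA libraries, at up to 10.9 TPM. It was called lower in both fractions (limma adjusted p = 0.00502 in polysomes and 0.00541 in monosomes), with no fold given. MIR1917 passed the filter on low values only through total RNA, so it could only come out as lower in the fractions. In total RNA its replicate 2 was 7.62, 0.231 and 0.429 times its replicate 1 in Hardening, Combo and Control.

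TFIIIA, the transcription factor of 5S ribosomal RNA genes, is known to have an exon that resembles 5S RNA and whose inclusion gives the non-coding form. The non-coding transcript had 0 to 12.0 TPM in polysomes, 0 to 3.77 TPM in monosomes and 22.6 to 72.2 TPM in total RNA. The difference was -3.04 for polysomes minus total RNA (SE 0.38, limma adjusted p = 5.76e-05) and -4.10 for monosomes minus total RNA (SE 0.28, limma adjusted p = 9.06e-07). Its share of the TPM of both TFIIIA transcripts was 10.4 ± 9.77% in polysomes, 2.48 ± 3.31% in monosomes and 60.4 ± 16.2% in total RNA (SD, n = 8 each). Neither ribosome fraction overlapped with total RNA in that share (exact two-sided permutation test, p = 0.000155 for each ribosome fraction, Benjamini-Hochberg adjusted p = 0.00114 over 22 tests). The coding transcript had a difference of 1.08 in polysomes (SE 0.34) and 1.45 in monosomes (SE 0.35), which depends on the scaling. As deposited, its medians were 27.5 TPM in polysomes, 32.1 TPM in monosomes and 27.0 TPM in total RNA. Its Combo total RNA libraries were far apart, at 32.3 and 2.96 TPM. In Control alone its differences of 0.31 and 1.105 were not called (limma adjusted p = 0.745 and 0.239), while in Combo those of 2.07 and 2.43 were. The 8 libraries of a fraction hold 4 conditions and are not replicates of 1 condition.

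In the same family of 22 tests, the non-coding share of LOC101248918 was 2.67 ± 1.71% in polysomes and 1.699 ± 1.91% in monosomes, against 8.20 ± 1.82% in total RNA (SD, n = 8 each, exact permutation test, adjusted p = 0.00171 and 0.00114). That transcript did not pass the filter on low values in either fit of a ribosome fraction with total RNA, so its share rests on low values. These tests too take libraries of unlike conditions as replicates. NR_136258.1 made up 2.56 ± 2.58% of LOC104645392 in polysomes and 2.68 ± 2.57% in monosomes, against 7.68 ± 2.19% in total RNA (SD, n = 8 each, exact permutation test, adjusted p = 0.00684 for both). The shares of the transcripts of CTR4, URED (a urease accessory gene), LOC101244507 and LOC101244641 did not pass the adjusted threshold, with p of 0.0590 to 0.971.

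The calls of higher members in polysomes rested in part on the Control libraries. NR_107998.1 was higher by 1.37 (SE 0.33, limma adjusted p = 0.00458) and held without any 1 library. MIR168b (1.00), U1.7 (1.15) and NR_137325.1 (1.02) were each under the cutoff without all Control libraries, at 0.65, 0.88 and 0.71. Of the lower ones, MIR482a (listed at 0 in 4 of 8 polysome libraries, so that its value depends on the pseudocount) was at -1.11 and at -0.12 without the Control libraries, LOC101244184 at -1.02 and -0.53, and NR_136258.1 of LOC104645392 at -1.16 and -0.86. MIR168b was also under the cutoff in 7 of 16 fits that left out 1 library, at 0.89 to 0.98, and NR_137325.1 in 5 of 16, at 0.83 to 0.97. U1.7 was at 0.997 without Control total RNA replicate 1, MIR482a at -0.94 without polysome replicate 1 labelled Hardening and at -0.99 without Control total RNA replicate 2, and LOC101244184 at -0.99 and -0.93 without polysome replicate 2 labelled Stress and of Control.

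Monosome against total RNA asks the same of a single ribosome. Of 63 members, 15 were higher and 10 lower in monosomes over the 4 conditions, against 6.52% and 11.5% of all transcripts. Of these 25 calls, 13 held without any 1 library. With all Control libraries left out there were 13 calls, 8 higher and 5 lower, against 19.5% of all transcripts called. The long non-coding RNAs LOC101254743 (1.77, SE 0.17), NR_144548.1 of LOC101244507 (1.45, SE 0.07), LOC101254736 (1.43, SE 0.12), LOC101245352 (1.29, SE 0.20) and LOC101246026 (1.17, SE 0.09) were higher in monosomes with and without Control. MIR6022 was too (1.59, SE 0.14, limma adjusted p = 5.42e-06), with 27.9 to 259 TPM in monosomes and 25.7 to 124 TPM in total RNA. On TPM as deposited these 6 stayed under the cutoff, so the difference is relative to the median transcript.

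LncRNA16397, which shares its span with the glutaredoxin gene GRX22, had the highest value of monosomes minus total RNA among the 63 members tested, averaged over the 4 conditions. It had 11.8 and 6.56 TPM in monosomes labelled Hardening, 0.753 and 0 TPM in those labelled Stress, 0 and 0.416 TPM in Combo and 5.28 and 1.04 TPM in Control, while in total RNA it was at 0 to 0.239 TPM. The difference was 1.85 (SE 0.27, limma adjusted p = 0.000202). LncRNA16397 passed the filter on low values only through its monosome libraries. It could therefore only come out as higher there, and its rank and adjusted p are no support for a difference. GRX22 had 4.51 and 4.95 TPM in monosomes labelled Hardening and 20.9 and 22.4 TPM in Control total RNA, and its own monosome difference was -0.43 (SE 0.12). The library kit keeps strand, but whether the authors' counting used it is not given in the sources used here, so reads of the overlapping part may belong to either gene.

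The SRP RNAs were high in some ribosome libraries and low in others. LOC107546769 had 41.2 and 490 TPM in monosomes labelled Hardening, 68.0 and 182 TPM in those labelled Stress, 44.8 and 8.68 TPM in Combo and 538 and 710 TPM in Control. 7SLRNA had 37.1 and 260 TPM, 19.2 and 94.5 TPM, 18.6 and 5.62 TPM, and 517 and 344 TPM in the same order. Their averaged differences of 1.48 (SE 0.55, limma adjusted p = 0.0420) and 1.39 (SE 0.48, limma adjusted p = 0.0313) fell to 0.57 and 0.45 without Control and were lost in 11 and 9 of 16 fits that left out 1 library. LOC108663988 and its identical row NR_138593.1 were at 1.60 and at 0.55 without Control. NR_138460.1 (1.09), NR_137325.1 (1.01), U3 (1.05) and LOC107546765 (1.28) were likewise under the cutoff without Control, at -0.03, 0.53, 0.35 and 0.37. Whether these structural RNAs came with ribosomes or with other material of the gradient was not tested.

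Both Control monosome libraries listed MIR9479, NR_136404.1, TFIIIA, MIR172a, U1.3, NR_136258.1 and NR_136259.1 at 0, so averaged differences of these depend on the pseudocount. Lower in monosomes with and without Control were MIR6023, MIR1917, MIR9479, NR_136404.1 and TFIIIA. MIR9479 had 0 to 3.87 TPM in monosomes and 3.06 to 9.10 TPM in total RNA (difference -1.97, SE 0.31, limma adjusted p = 0.000285), and NR_136404.1 had 0 to 30.8 TPM and 19.6 to 73.0 TPM (difference -2.40, SE 0.28, limma adjusted p = 4.06e-05). MIR1919c (-1.30), MIR172a (-1.79), U1.3 (-1.06) and the transcripts NR_136258.1 and NR_136259.1 of LOC104645392 (-1.23 and -1.37) were lower over 4 conditions and were not called without Control, at -1.21, -1.04, -0.64, -0.85 and -0.71.

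**Figure D5:**
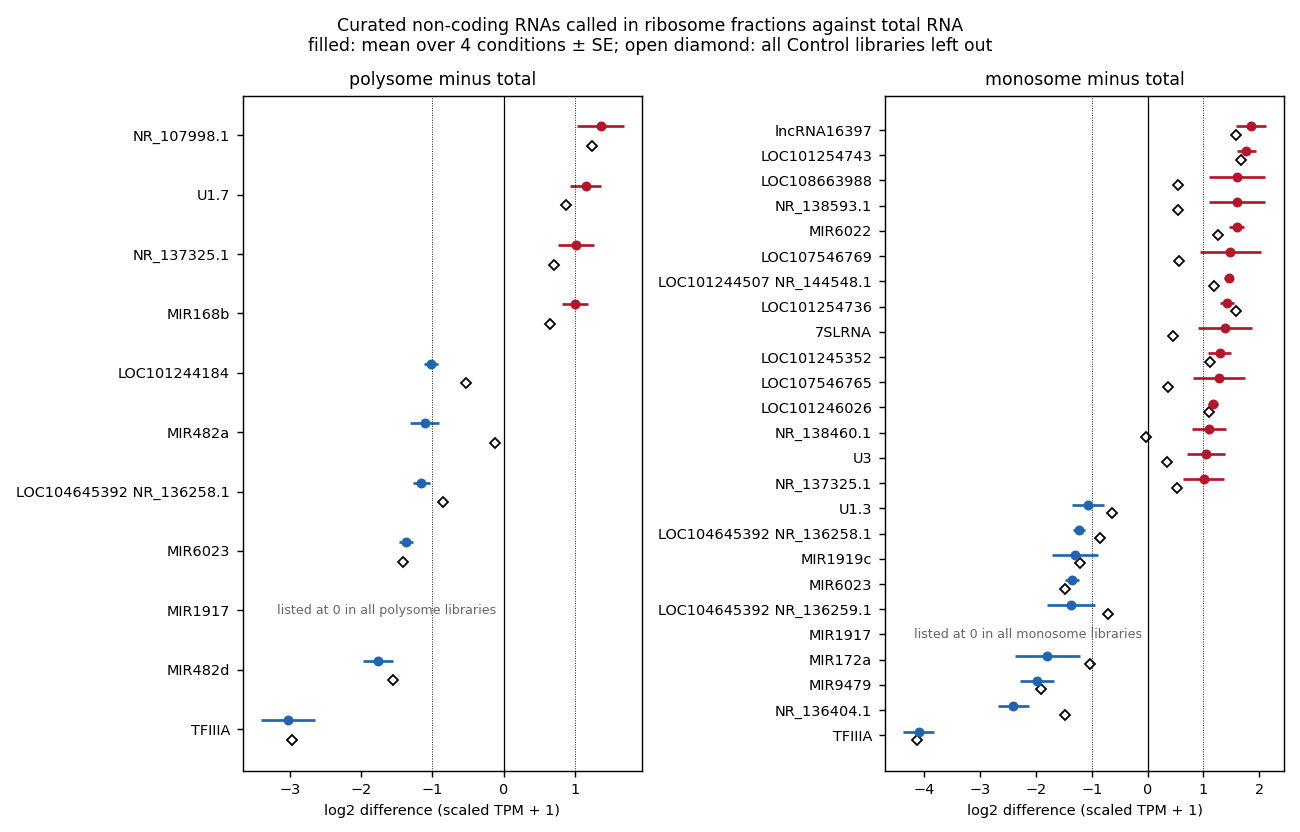
Log2 difference on the scale of scaled TPM + 1 (x axis) of polysomes minus total RNA (left) and monosomes minus total RNA (right) for the members called there. Filled points give the mean over 4 conditions ± SE (red higher, blue lower), open diamonds the mean over 3 conditions without any Control library (no point for MIR1917, at 0 in both fractions), and dotted lines the cutoffs of -1 and 1. The diamonds of TFIIIA, MIR6023 and LOC101254743 lie near their points, and those of the SRP RNAs lie near 0.5.

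Within 1 condition, the difference between polysomes and total RNA gave few calls in Combo and more in Control. In Combo 2 members were higher and 4 lower, against 3.81% and 5.41% of all transcripts (9.22% in all), and in Control 17 were higher and 10 lower, against 7.51% and 14.1%. Of these, 2 of 6 in Combo and 10 of 27 in Control held without any 1 library. MIR6023 was lower by 1.29 in Combo and by 1.25 in Control, the first at -0.97 without Combo polysome replicate 2. MIR482d was called lower in both conditions, with no fold because all 4 polysome libraries were at 0, so it could only come out as lower. NR_107998.1 was higher by 2.23 in Combo and 1.80 in Control, calls lost in 4 and 13 of 16 fits that left out a library. The Control calls that turned direction on TPM as deposited were 8: MIR6022, MIR6024, MIR168a, LOC101254743, LOC101254736, LOC104648605, LOC101244507 and LOC101244641.

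The translational ratio (polysomes minus total RNA) differed between Combo and Control for 5 members upwards and 9 downwards, against 7.14% and 2.88% of all transcripts. Of these 14, 6 held without any 1 library: MIR482a, MIR168a, MIR396b, NR_136258.1, LOC101244184 and NR_138460.1. MIR396b was listed at 0 in both Combo total RNA libraries and in both Control polysome libraries. No ratio is defined for it in either condition, and its call says nothing of translation. MIR482a was at 0 in both Control polysome libraries. With a pseudocount of 0.1 the call of NR_136258.1 was lost (1.98, limma adjusted p = 0.125). On TPM as deposited 6 calls were lost, those of 7SLRNA (-2.07), NR_137325.1 (-1.62), LOC107546765 (-1.53), U1.7 (-1.14), MIR168b (-0.998) and LOC101255182 (-0.45). LOC101244184 had 48.4 and 44.3 TPM in Combo polysomes with 47.4 and 41.4 TPM in Combo total RNA, and 5.98 and 2.98 TPM in Control polysomes with 90.5 and 82.1 TPM in Control total RNA. Its ratio rose by 2.98 (SE 0.27, limma adjusted p = 0.000139). MIR168a had 64.2 and 50.5 TPM in Combo polysomes and 33.0 and 62.8 TPM in Control polysomes, and its ratio fell by 2.50 (SE 0.44, limma adjusted p = 0.00422). These values rest on the Control polysome libraries, in which 10 transcripts held 55.7 to 60.0% of all TPM, and their part in the result was not tested.

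Monosomes minus total RNA gave 4 members higher and 2 lower in Combo, against 7.71% and 8.02% of all transcripts, and 18 higher and 11 lower in Control, against 8.35% and 18.5%. TPSI1 had 24.5 and 27.0 TPM in Control monosomes, 6.73 and 3.84 TPM in Control polysomes and 23.3 and 19.2 TPM in Control total RNA, with a monosome difference of 2.09 (SE 0.30, limma adjusted p = 0.000394). LOC104649738 (2.29, SE 0.34) and LOC101255182 (2.30, SE 0.47) were higher too. On TPM as deposited these 3 calls were lost, at 0.27, 0.94 and 0.55. LOC101250573, whose span holds 12 nucleolar RNA genes, was higher by 1.63 (SE 0.47), a call lost without replicate 1 of Control monosomes or without replicate 1 of Control total RNA (1.22). MIR6024 was listed at 0 in both Control monosome libraries, with 91.8 and 26.7 TPM in Control polysomes and 46.8 and 55.4 TPM in Control total RNA. U1.2 and MIR172a were at 0 in the same 2 libraries. In Combo, MIR6022 (1.80), LOC101254743 (1.57), LOC101254736 (1.16) and LOC101246026 (1.04) were higher, and TFIIIA (-3.83) and U1.3 (-2.54) lower. Of these 6, MIR6022 and TFIIIA held without any 1 library, and the lowest values in size among lost calls were 1.34 for LOC101254743, 0.88 for LOC101254736, 0.86 for LOC101246026 and -2.43 for U1.3.

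Polysomes were also set against monosomes directly. Of 58 members, 3 were higher in polysomes over the 4 conditions and none lower, against 1.53% and 0.465% of all transcripts. With limma 20 of the 58 had an unadjusted p under 0.05. The 3 were MIR6024 (1.33), MIR9479 (1.10) and U1.3 (1.43). Without the Control libraries MIR6024 was at -0.46 and none of the 3 was called. MIR9479 was also lost in 8 of 16 fits that left out 1 library, at 0.85 to 1.11. In Combo alone none was called with limma, against 0.306% and 0.0397% of all transcripts, with 5 of 58 at an unadjusted p under 0.05, and in Control alone 7 were higher and 7 lower, against 10.4% and 6.68%.

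Some members had the opposite order of the labels Hardening and Stress in the ribosome fractions and in total RNA. MIR482a was listed at 0 in polysomes labelled Stress and in Control polysomes, and had 22.5 and 63.6 TPM in polysomes labelled Hardening and 6.92 and 5.56 TPM in Combo polysomes. In total RNA it was at 0 in Hardening and highest in Stress. MIR167b had 16.4 and 20.2 TPM in polysomes labelled Hardening and 0.349 and 0 TPM in those labelled Stress, against 0.360 and 1.23 TPM and 15.8 and 25.5 TPM in the total RNA of these labels. NR_136260.1 of LOC104645392 had 44.7 and 45.3 TPM and 13.6 and 15.0 TPM in polysomes labelled Hardening and Stress, and 37.5 and 45.1 TPM and 8.95 and 9.63 TPM in monosomes of these labels, against 14.0 and 14.2 TPM and 78.3 and 76.9 TPM in total RNA.

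Among 63 members with a mean of at least 1 TPM, 28 had libraries of the 2 labels that did not overlap in either polysomes or total RNA, and 24 of these (85.7%) had the opposite order in the 2. Of all 19918 transcripts with such a mean, 13609 did not overlap in both, a larger part than of the members, and 80.9% of these had the opposite order. For monosomes 20 of the 63 members did not overlap, 17 of them (85.0%) in the opposite order. Of all transcripts 12562 did not overlap there, again a larger part, with 88.2% in the opposite order. A change of order in the fractions and an exchange of labels cannot be told apart here, and the comparisons above use the polysome and monosome libraries of these 2 labels only as part of a mean over conditions.

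The enzymes that make and use microRNA were described from a list of 30 symbols, of which 13 matched with 18 transcripts, and 10 of these were tested. In Hardening_vs_Control 2 rose and 1 fell, in Stress_vs_Control none was called, and in Combo_vs_Control 3 rose and 2 fell. Of all transcripts 13.3% rose and 17.3% fell in the first comparison, 2.37% and 1.94% in the second and 15.6% and 19.9% in the third. The median changes of the list were -0.02, 0.08 and 0.13, against -0.00060, 0.0012 and 0.01 for all transcripts. The Dicer-like gene DCL2c had 170 and 174 TPM in Hardening, 65.2 and 57.1 TPM in Stress, 150 and 131 TPM in Combo, and 37.3 and 36.3 TPM in Control. It rose by 1.80 in Hardening_vs_Control (SE 0.08) and 1.54 in Combo_vs_Control (SE 0.08, limma adjusted p = 1.14e-05). AGO2A, an Argonaute gene, rose by 1.97 and AGO4B, an Argonaute gene of the RNA-directed DNA methylation pathway, fell by 3.01 in Combo_vs_Control, where DCL2d rose by 3.12 (SE 0.95) and AGO4A fell by 1.01. The precursor MIR6026, whose microRNA targets DCL2, was singled out after its values were seen: it had 10.7 and 31.1 TPM in Hardening, 4.79 and 9.44 TPM in Stress, 5.87 and 12.2 TPM in Combo, and 7.52 and 7.43 TPM in Control, and was not called.

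Of the conserved target families, 10 of 28 symbols matched with 25 transcripts, and 22 were tested in total RNA. In Hardening_vs_Control 4 rose and 5 fell, in Stress_vs_Control 1 fell, and in Combo_vs_Control 3 rose and 9 fell. The shares of all transcripts are those given for the enzymes (13.3% and 17.3%, 2.37% and 1.94%, and 15.6% and 19.9%), and the median changes of the list were -0.36, 0.27 and -0.35. The 5 largest changes in Combo_vs_Control were TCP3 (-2.28), SBP3 (-1.997), AP2a (1.703), TCP11 (-1.64) and TCP20 (1.51), all transcription factor genes. The list took TCP genes by symbol, and not each of them is known as a microRNA target. ARF6a, of the family that miR167 targets, had 26.1 and 26.9 TPM in Hardening, 15.9 and 15.7 TPM in Stress, 24.02 and 21.2 TPM in Combo, and 12.9 and 12.4 TPM in Control, and its log2 changes of 0.63 in Hardening_vs_Control and 0.44 in Combo_vs_Control lay under the cutoff. ARF8a, also of that family, had 1.09 and 1.53 TPM in Hardening, 3.69 and 1.46 TPM in Stress, 3.51 and 1.67 TPM in Combo, and 1.58 and 1.19 TPM in Control. Both were named outside the rule of the 5 largest changes.

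The members not called in any comparison numbered 44, of which 27 were precursors and 17 others. Their mean TPM over 24 libraries was 0.00168 to 58.2, and 31 of them were under 1. In total RNA, 31 members did not pass the filter on low values, 20 of them precursors, and no statement is made about their change. The remaining members called in fewer comparisons were LOC101258593 and U1.4, lower in Control polysomes than in Control total RNA by 1.22 and 1.26 (U1.4 at -0.52 without Control total RNA replicate 2), LOC104648605, higher there by 1.18 (0.71 without Control polysome replicate 2), and LOC107546765, whose Control monosome difference was 3.83 (SE 0.92).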

How the data were processed

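Leaf libraries (4 conditions, 3 fractions, 2 replicates each) were made by the authors with a stranded poly(A) kit and quantified with kallisto on the RefSeq transcriptome. The deposited values are TPM, normalised by the authors to a sum of 1000000 per library. The paper reports sequencing depth, but the number of reads behind each TPM value is unknown here, so no count test was run. Names and gene lengths came from the RefSeq gene table, whose assembly is not the authors', and no coordinates or sequences are printed. TPM were scaled by a trimmed mean of log ratios (30% and 5% trimmed), filtered at a mean of 1 and tested as log2(scaled TPM + 1) with limma 3.58.1 in R 4.3.3, with Benjamini-Hochberg adjustment over all transcripts, and checked on simulated data. Fits used the 8 total RNA libraries or the 16 of a pair of fractions. Named were members called in at least 1 comparison, the 5 highest, the 5 lowest and MIR482a, and of the pathway lists the 5 largest changes among those called in Combo_vs_Control. ARF6a, ARF8a and MIR6026 were named besides these. Members and lists were chosen with earlier results of these data known. Replicate numbers paired the total RNA libraries (r of 0.22 to 0.28 between deviations) and not the ribosome libraries (-0.19 to 0.12).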

Additional observations from a re-analysis of the deposited data

Results flagged for a closer look

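In 19 results the change under 1 contrast differed between groups by its own test. Groups hold 2 libraries, too few to look for a library that stands apart within a group.

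In total RNA, the change at 0 °C in hardened leaves minus that in unhardened leaves was 1.89 for MIR482a, 2.17 for MIR482d, 1.40 for NR_136404.1, -1.09 for MIR6022 and -1.003 for LOC101254743 (limma adjusted p = 0.0445, 0.0269, 0.0183, 0.0208 and 0.0166). For MIR482a the fitted value rests on a Hardening group listed at 0 and moves with the pseudocount. Each of the 5 was lost in 4 to 7 of the 8 fits that left out a library.

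The translational ratio in Combo minus that in Control was 2.98 for LOC101244184 and 1.68 for NR_136258.1 of LOC104645392. It was 3.75 for MIR482a, 3.70 for MIR5303 and 2.56 for MIR396b, fitted values with both Control polysome libraries at 0. MIR5303 and MIR396b were also at 0 in both Combo total RNA libraries, so no ratio is defined for them in either condition. Among the long non-coding RNAs and precursors the ratio difference was -2.50 for MIR168a, -2.31 for MIR168b, -2.76 for LOC107546765 and -1.46 for LOC101255182. Among the structural and unnamed RNAs it was -3.74 for LOC107546769, -3.38 for 7SLRNA, -2.45 for U1.7, -2.92 for NR_137325.1 and -3.68 for NR_138460.1. The limma adjusted p of these 14 ran from 0.000139 to 0.0433. On TPM as deposited 7SLRNA, NR_137325.1, LOC107546765, U1.7, MIR168b and LOC101255182 were no longer called, nor was NR_136258.1 with a pseudocount of 0.1.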

How the results depend on the processing

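Fitted with a replicate block (the total RNA libraries paired by number), Stress_vs_Control had 8 calls, Combo_vs_Hardening 4 and the test of hardened minus unhardened 8, and polysome minus total RNA in Combo, where the numbers do not pair, 10. Of all transcripts, 5.08%, 4.63%, 8.41% and 9.39% were called there, in the same order. The block ended no call. Without a filter on low values the hardened minus unhardened test had 3 calls, against 3.35% of all transcripts. With a pseudocount of 0.1, polysome minus total RNA in Combo had 10, against 9.42% of all transcripts.

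On TPM as deposited, polysome minus total RNA had 19 calls averaged over conditions and 11 in Combo, and monosome minus total RNA 13 in Combo. Of all transcripts, 34.4%, about 14% and 20.4% were called on that scale, in the same order. There the Control polysome difference turned to -0.57 for MIR6022, -0.035 for MIR6024, -0.22 for MIR168a, -0.59 for LOC101254743, -0.66 for LOC101254736, -0.25 for LOC104648605, -0.62 for NR_144548.1 and -0.38 for NR_144564.1. The Control monosome difference turned to -0.18 for LOC101245352, -0.12 for LOC101250573 and -0.70 for LOC101246026, and the averaged one to -0.022 for NR_137325.1.

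With all Control libraries left out, an alternative chosen after seeing the data, the averaged calls were 13 for monosomes minus total RNA and 1 for polysomes minus monosomes. Of all transcripts, 19.5% and 1.42% were called there. NR_138460.1 (-0.035) and MIR6024 (-0.46) turned direction.

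Leaving out 1 library gave 15 to 24 calls in Hardening_vs_Control, 1 to 5 in Stress_vs_Control, 16 to 22 in Combo_vs_Control, 2 to 3 in Combo_vs_Hardening, 15 to 21 in Combo_vs_Stress and 1 to 6 for hardened minus unhardened. It gave 8 to 15, 4 to 9 and 16 to 29 for polysomes minus total RNA averaged, in Combo and in Control, 6 to 20 for the translational ratio, and 15 to 28, 3 to 9 and 23 to 40 for monosomes. For polysomes minus monosomes it gave 2 to 7 averaged, 0 to 0 in Combo and 13 to 20 in Control. The lone library left in a group is assumed to vary like the others. The cause of these shifts was not tested. The number of reads behind each TPM value is unknown here, so a value of 0 for a short precursor sets no upper limit.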
